A study of Mus musculus with 8 samples.

Results

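Cluster 4 of the deposited cell table is a group of T cells that carried RNA of a pair of neighbouring stefin genes, Cstdc4 and Csta2, in nearly every cell. Its members were the cells with cluster label 4 and at least 500 detected genes, and they numbered 2407 of the 101688 cells of the series that met the same minimum, or 2.37%. A further 9 cells of the cluster fell below the minimum. The proposed marker Cysltr1 was higher in cluster 4 than in the other cells of all 8 libraries, but it was the seventh gene by ratio, and Cstdc4 and Csta2 led by a wide margin.

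The cells were CD4 T cells from the spleens of female mice aged 10 weeks, either wild type (WT) or knockout for Gpr65 (KO), with 2 libraries for each genotype and culture. All cultures contained IL-1b and IL-23, each at 20 ng/ml, in RPMI medium with serum, and all were harvested on day 3. Th17 cultures had IL-6 at 25 ng/ml and no FICZ, whereas Th22 cultures had IL-6 at 40 ng/ml and FICZ, an agonist of the aryl hydrocarbon receptor, at 400 nM, so the IL-6 dose and FICZ cannot be told apart. RNA was read at the 3' end in droplets, with unique molecular identifiers (UMIs) counted per gene and cell. The labels give neither the knockout allele nor the background strain, and do not say whether libraries of a group came from separate mice or cultures, so p-values reflect only how far libraries of a group lay apart, and that variation may be technical.

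Stefins are small cytosolic proteins that inhibit cysteine cathepsins, the proteases of the endosome and lysosome. The mouse carries an expanded family of stefin A genes on chromosome 16. Cysltr1 encodes the receptor for cysteinyl leukotrienes, lipid mediators made by mast cells and other myeloid cells in allergic inflammation. Gpr65 encodes a proton-sensing receptor that signals through cyclic AMP in lymphocytes.

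The 2 genes that led cluster 4 lie in the same stefin block, and their promoter windows are shown because the pair rose together while the sequences around their starts differ. Windows run from 250 bases before to 50 bases after the annotated start, 5′ to 3′ on the plus strand, from RefSeq on build GRCm38.p6. The capitals mark TTTAAAACC in the Cstdc4 window (chr16:36183962-36184261) and GCGTG, the core of aryl hydrocarbon receptor elements, in the Csta2 window (chr16:36221312-36221611).
Cstdc4: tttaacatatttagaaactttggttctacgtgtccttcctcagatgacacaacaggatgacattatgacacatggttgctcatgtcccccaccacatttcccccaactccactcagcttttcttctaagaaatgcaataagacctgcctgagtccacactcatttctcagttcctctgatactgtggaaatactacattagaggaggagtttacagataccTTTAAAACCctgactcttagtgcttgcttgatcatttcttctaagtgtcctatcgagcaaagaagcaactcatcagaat
Csta2: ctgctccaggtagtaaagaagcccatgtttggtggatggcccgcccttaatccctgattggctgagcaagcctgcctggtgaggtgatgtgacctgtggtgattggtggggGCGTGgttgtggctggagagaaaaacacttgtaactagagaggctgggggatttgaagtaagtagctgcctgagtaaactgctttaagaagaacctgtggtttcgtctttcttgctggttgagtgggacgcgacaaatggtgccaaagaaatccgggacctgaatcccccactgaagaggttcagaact
The letters TTTAAAACC were picked after the sequences had been seen, and occurred in 4 of the 5 measured stefin genes' windows (Cstdc4, Csta3, Stfa1 and Stfa2, not Csta2) against 0.396% of all 32544 promoter windows of that length, on either strand. GCGTG was found only in the Csta2 window of the 5, and in 32.6% of all windows. TGANTCA, the AP-1 motif, was in none of the 5 and in 7.79% of all. In global alignments with gaps, identical bases made up 55.0% of the window length between Cstdc4 and Csta2 and 55.0% to 59.0% between Csta2 and any of the other stefin windows, whereas the windows of the other 4 genes matched each other at 70.3% to 80.3%. Unrelated windows were not aligned for comparison. These matches describe letters in a window and show no binding.

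Libraries held 9969 to 15119 kept cells, and cluster 4 supplied 184 to 462 of them, which summed to 779146 to 2493354 UMIs per library. Cells of cluster 4 were deeper than the others in all 8 libraries, with a median over all cells of 4154 against 2964 UMIs, and 18.5% of them were among the 8% deepest cells of their library. Depth therefore moved with cluster 4, and its part in the differences from other cells was not tested beyond the thinned values given with them. Any pair of libraries shared at most 67 cell barcodes, 0.56% of the smaller library. Doublets were not removed here. In the sums below, CPM (counts per 1000000) is UMIs of a gene per 1000000 UMIs of the cluster 4 cells, or of the other cells, of a library.

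Cstdc4 stood at 322 and 381 CPM in the KO Th17 libraries, 261 and 364 in KO Th22, 281 and 229 in WT Th17, and 270 and 236 in WT Th22. In the other cells of the same libraries it ranged from 0.628 to 2.62 CPM. Csta2 stood at 284 and 344 CPM in KO Th17, 308 and 402 in KO Th22, 387 and 246 in WT Th17, and 390 and 324 in WT Th22, against 0.915 to 2.96 CPM in other cells. Every library of cluster 4 thus lay far above every library of other cells for both genes. The 4 groups overlapped for Csta2, whereas for Cstdc4 both KO Th17 libraries lay above all 4 WT libraries and KO Th22 overlapped with WT. The mean log2 ratio of cluster 4 to other cells, on a scale of CPM plus 1, was 6.87 for Cstdc4 (6.32 to 7.63 over the 8 libraries) and 6.80 for Csta2 (6.32 to 7.36). The cluster was built from these data, so all ratios between cluster 4 and other cells are descriptions without a test.

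Almost every cell of the cluster carried the transcripts. At least 1 UMI of either gene was found in 2395 of 2407 cells (99.5%, exact binomial 95% interval 99.1% to 99.7%), but 1123 of them had a single UMI and 815 had 3 or more. Both genes were found in 895 cells, 37.2%. Of the 99281 other cells, 1167 (1.18%) had a UMI of either gene, 1090 of these with only 1, and the cells with exactly 1 had a median depth of 5666 UMIs against 3299 for cluster 4 cells with 1. Cluster 4 held 84.6% of all UMIs of the pair. The cluster was built from these data, so these shares describe the grouping and are no separate evidence. Intervals on single cells cover counting error only, and whether free RNA in the droplets contributed to single UMIs was not tested. The share of cluster 4 cells with 3 or more UMIs ran from 19.6% in a KO Th17 library with a median depth of 3196 UMIs in cluster 4 to 50.4% in a KO Th22 library with 5185.

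The other leading genes were far less restricted. Gap43, a growth-associated protein of the membrane known from axons, averaged 106 ± 29.5 CPM (SD, n = 8 libraries) against 18.3 ± 6.09 in other cells, a log2 ratio of 2.48. Map1b, a microtubule-associated protein, had a ratio of 2.25 at 12.7 CPM, and Cd86, a ligand of CD28 and CTLA-4 better known from antigen-presenting cells, 2.03 at 19.8 CPM. Anxa3, an annexin that binds phospholipid, followed with 1.85.

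Cysltr1 (chromosome X, 106576509 to 106603679 on GRCm38.p6) stood at 36.1 ± 11.3 CPM in cluster 4 and 10.5 ± 3.33 in other cells, a log2 ratio of 1.68 with a range of 1.32 to 1.86 over the 8 libraries. After each cell was thinned to 1500 UMIs, a UMI of Cysltr1 was found in 5.02% of cluster 4 cells, and the next highest cluster, cluster 2, had 2.18%. Cstdc4 was found in 33.5% of thinned cluster 4 cells and in at most 1.02% of any other cluster. Cysltr1 thus marked a ratio between clusters, while most cells of cluster 4 showed no UMI of it at this depth.

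**Figure D1:**
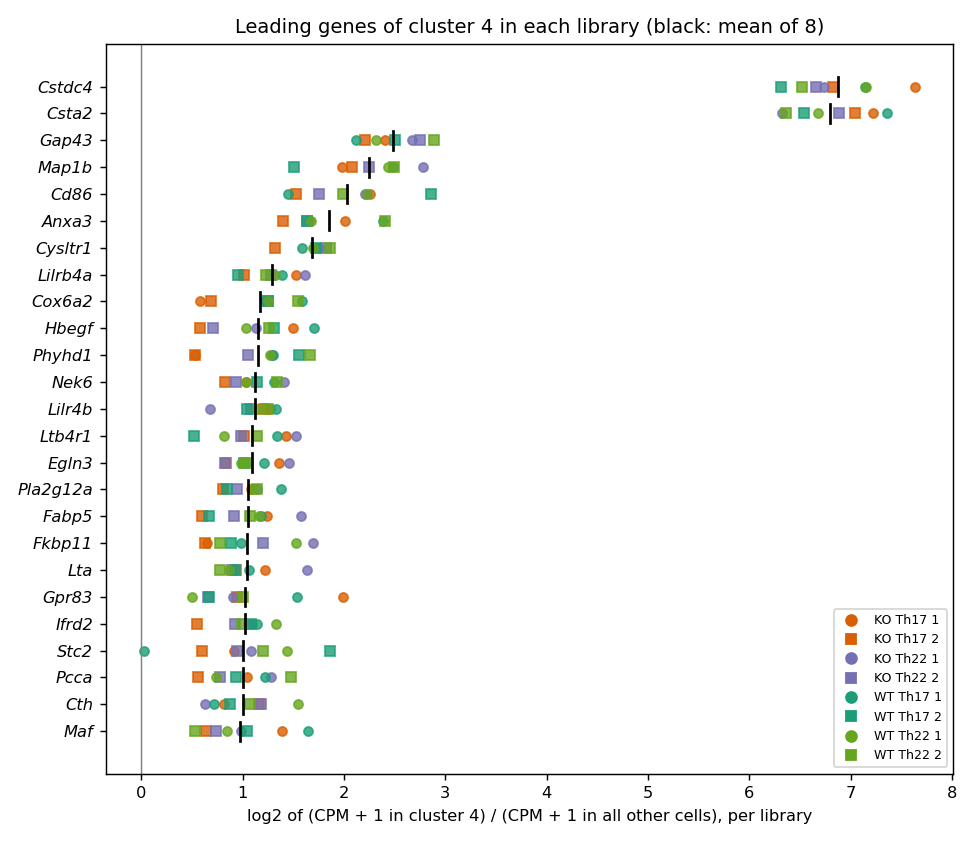
The horizontal axis gives log2 of CPM plus 1 in cluster 4 over CPM plus 1 in all other cells, and each row is a leading gene, with 1 coloured point per library and the mean of 8 in black. Cstdc4 and Csta2 lie above 6.3 in all 8 libraries, and the other genes lie below 3.

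Other leading genes belong to immune receptors, cytokines and metabolism. Lilrb4a and Lilr4b, inhibitory receptors of the leukocyte immunoglobulin-like family, had ratios of 1.29 and 1.13, although a larger share of thinned cells held them in cluster 7 (25.0% and 16.5%) than in cluster 4 (15.2% and 6.42%). Ltb4r1, the high-affinity receptor for leukotriene B4, had 1.10, Lta, the cytokine lymphotoxin alpha, 1.04, and Hbegf, a ligand of the EGF receptor, 1.15. Egln3, a hypoxia-induced prolyl hydroxylase, had 1.09, Fabp5, a fatty acid carrier, 1.05, Cth, the enzyme that makes cysteine from cystathionine, 1.0, and Maf, a transcription factor of IL-10 and IL-21 producing T cells, 0.98. Cox6a2, Phyhd1, Nek6, Pla2g12a, Fkbp11, Gpr83, Ifrd2, Stc2 and Pcca completed the list, with ratios from 1.0 to 1.17. Thinned cells of another cluster also held Ltb4r1 more often (10.5% in cluster 7 against 6.55% in cluster 4), as they did Lta (11.5% in cluster 8 against 7.14%), Cox6a2 (6.65% in cluster 7 against 6.25%) and Nek6 (4.68% in cluster 7 against 4.38%). Against cluster 1 alone, the cluster most like cluster 4, some ratios were small: Egln3 0.31, Ifrd2 0.24, Fabp5 0.34, Fkbp11 0.40 and Gpr83 0.20. Fabp5 and Fkbp11 were higher there in 7 libraries and Gpr83 in 5. Other ratios held better against cluster 1, such as Ltb4r1 at 0.99 and Maf at 0.90. Lta was lower than in cluster 8 in all 8 libraries, at -0.74.

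Genes lower in cluster 4 included products of cytokine-secreting and recirculating T cells. Il17a, the signature cytokine of Th17 cells, averaged 2.45 CPM against 18.9 in other cells, a log2 ratio of -2.77, and Il17f 9.35 against 25.4, a ratio of -1.27. Trdc, the constant region of the delta T cell receptor, had -2.51, Nkg7, a protein of cytotoxic granules, -2.12, and Ifitm1, an interferon-induced membrane protein, -1.94. Klf2, the transcription factor that keeps naive T cells in circulation, had -1.39, Ccl4, a chemokine, -1.38, Adora2a, an adenosine receptor, -1.28, and Itga4, an integrin chain of homing receptors, -1.27. Cldn10, Vps37b, Ms4a4b, Slamf6, Tg and Plac8 made up the rest, from -1.63 to -1.26. Several were found most often in 1 other cluster. Thinned cells of cluster 7 held Trdc in 39.3%, Nkg7 in 52.1% and Plac8 in 48.7%. Those of cluster 2 held Il17a in 7.38% and Il17f in 14.8%. Nkg7, Ccl4 and Ms4a4b were also at least 2-fold lower than in cluster 1 in the mean, and lower in 8 of 8 libraries. Among 6511 genes at 10 CPM or more in either set of cells, 711 (10.9%) were higher and 1001 (15.4%) lower in 8 of 8 libraries, and the median ratio was -0.06.

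T cell genes were detected in cluster 4, most of them at lower levels than in other cells. Cd3e, a chain of the T cell receptor complex, averaged 216 CPM against 306 and was lower in 8 of 8 libraries, and Cd4 93.4 against 108, lower in 7. At the greater depth of cluster 4, a UMI of Cd3e was found in 58.5% of its cells and 58.6% of the others, and of Cd4 in 31.3% and 28.7%. By level, 8 of 14 T cell identity genes were lower in all 8 libraries and 2 higher (Lat and Cd5), with a median ratio of -0.26. Foxp3, the factor that defines regulatory T cells, was found in 0 of 2407 cells, which allows a share of cells with a UMI of up to 0.125%. That limit lies above the 0.0332% of other cells, so no difference was detectable at this depth. Gata3 and Tbx21, the factors of Th2 and Th1 cells, were found in 1.79% and 0.789% of cluster 4 cells and in 2.83% and 0.964% of the others.

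Gamma-delta T cell markers were low, whereas some genes of the B cell and myeloid lists were not. Summed over the gamma-delta T cell list, cluster 4 held 0.577 to 3.85 CPM per library against 13.2 to 31.1 in other cells. Of 12 B and plasma cell genes, 8 had no UMI in cluster 4, Ms4a1 among them. The list still summed to 27.8 to 52.7 CPM per library against 45.0 to 66.6 in other cells. Neither of its 2 genes at 10 CPM or more moved one way in all 8 libraries. The 9 measured myeloid and dendritic genes summed to 145 to 176 CPM against 131 to 167, nearly all of it from Cst3 and Cd68, and Cd14, Csf1r and Flt3 were at 0. Cd68, a lysosomal membrane protein, was at 35.8 against 22.7 CPM and higher in 8 of 8 libraries. Cd74, the invariant chain of class II presentation, was found in 9.97% of cluster 4 cells and 4.68% of the others. The part of these genes in the differences of cluster 4 was not tested.

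Genes of cell growth were higher in cluster 4. Of 19 measured Myc and ribosome biogenesis genes, 16 were higher in all 8 libraries and 0 lower, with a median ratio of 0.53; Srm, which makes spermidine, had 0.79, Rrp9 0.74, Nop56 0.73 and Mybbp1a 0.69. The sterol and fatty acid synthesis list had 7 of 15 higher and 0 lower (median 0.38, led by Sqle at 0.63), and the list of ATF4 and amino acid response genes 9 of 17 higher and 0 lower (median 0.31, with Cth at 1.0, Psph at 0.69 and Asns, which makes asparagine, at 0.67). Nuclear genes of the respiratory chain were higher in 10 of 18 and lower in 2 (median 0.20, led by Atp5g1 at 0.51), and of 21 glycolysis and hypoxia genes 9 were higher and 2 lower (median 0.13), with Egln3 at 1.09 and Ero1l, an oxidase of the endoplasmic reticulum, at 0.89. These shares stand beside the 10.9% of all genes that were higher in every library. The other cells include the 39805 of cluster 0. Nolc1 and Srm were among the leading genes at least 2-fold higher than in that cluster. No gene of these lists was among the 11 that were at least 2-fold higher than in cluster 1. Against cluster 1, Egln3 had 0.31 and Cth 0.61, and ratios of the other members were not examined.

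Genes of resting T cells and of the G2/M phase were lower. The naive and memory list had 0 of 15 higher and 12 lower (median -0.72), with S1pr1, the receptor for egress from lymph nodes, at -1.15 and Tcf7 at -1.03. Of 23 genes of the G2/M phase, 11 were lower in every library and 0 higher (median -0.70, Cenpf -1.09 and Mki67 -0.92), while 0 of 16 S phase genes moved one way in all 8. The share of cells called S phase was higher in cluster 4 than in other cells of all 8 libraries, at 21.6% to 33.9% against 17% to 23.1%, and of 7 of 8 after thinning. Proton-sensing and cyclic AMP genes were lower in 9 of 14 (median -0.63), among them Rgs2, a regulator of G protein signalling, at -0.90, and Dusp4, a phosphatase of MAP kinases, at -0.86. All 3 measured Ifitm genes were lower (median -1.02), as were 5 of 9 interferon response genes with 1 higher (median -0.42; Isg15 -1.06, Bst2 0.31). The lower share over all genes was 15.4%. Klf2 and S1pr1 were among the genes leading the falls against cluster 0, and Cenpf and Mki67 against cluster 3. Levels of these lists in cluster 1 alone were not compared.

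Eicosanoid genes did not move as a block. Of 9 at 10 CPM or more, 4 were higher in every library (Cysltr1, Ltb4r1, Ptges3 and Hpgds) and 1 was lower (Cysltr2, the other cysteinyl leukotriene receptor, at -1.18), with a median of 0.17. Over all genes the shares were 10.9% higher and 15.4% lower. Cysltr1 and Ltb4r1 are leading genes that were picked by this same ratio. Hpgds, the hematopoietic synthase of prostaglandin D2, stood at 13.1 against 7.87 CPM. Ltc4s, which makes leukotriene C4, had no UMI in cluster 4, and Alox5ap, the partner of 5-lipoxygenase, stood at 0.352 CPM.

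By mean expression over 5956 genes, cluster 4 correlated across genes most with cluster 1 (Pearson's r = 0.992), cluster 2 (0.987) and cluster 8 (0.975); genes are not independent, and these values describe likeness only. Compared with cluster 1, 11 genes were at least 2-fold higher in cluster 4 in the mean and higher in 8 of 8 libraries, namely Csta2, Cstdc4, Cd86, Gap43, Map1b, Anxa3, Il24, Cysltr1, Cd74, Gpnmb and Cox6a2, and 17 were lower. Cysltr1 stood at 14.3 CPM in cluster 1 and 13.8 in cluster 2, and Gap43 at 32.5 and 28.0, so both were already above the level of the largest cluster, cluster 0, which had 7.36 and 8.07. Csta2 in contrast was at 1.77 and 3.28 CPM in clusters 1 and 2.

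**Figure D2:**
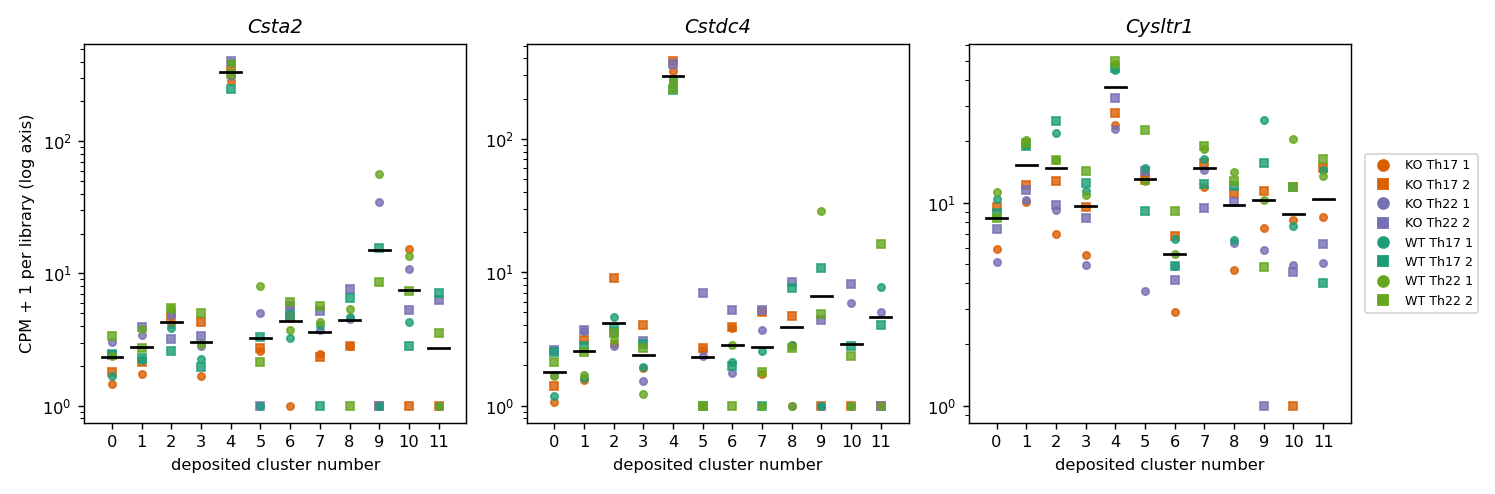
The vertical axes give CPM plus 1 on a log axis for Csta2, Cstdc4 and Cysltr1 in each cluster, with 1 point per library. Cluster 4 lies at or above 229 CPM for both stefin genes in all libraries, while Cysltr1 overlaps between cluster 4 and other clusters.

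To see whether the other leading genes followed the stefin UMI count within the cluster, cells thinned to 1500 UMIs were split by it; 2352 cells of cluster 4 were deep enough and 55 were left out. Gap43 stood at 102 CPM (Poisson 95% interval 85.7 to 120) in the 930 cluster 4 cells left with no stefin UMI, at 64.9 (52.5 to 79.3) in the 976 cells with 1, and at 123 (97.5 to 152) in the 446 cells with 2 or more, against 15.3 in other cells with none. Cysltr1 stood at 32.3, 30.7 and 47.8 CPM in these 3 sets of cluster 4 cells and at 10.1 in other cells with none. Cells left with no stefin UMI are still members of a cluster in which nearly every cell had one before thinning, so their levels describe the cluster and are no separate evidence. Maf was highest with 2 or more (118 CPM, 93.5 to 147, against 53.8, 42.3 to 67.4, with none). In 353 other cells with a stefin UMI, Cysltr1 was at 28.3 CPM (15.9 to 46.7) and Gap43 at 24.6 (13.1 to 42.0). Cells are no replicates, so these intervals cover counting error over the pooled libraries.

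The stefin genes form a block of 335 kb on chromosome 16 (36119946 to 36455392), and 7 are annotated there, of which 5 were in the count table. Csta3 had 67 UMIs in cluster 4 and 41 in the much larger set of other cells, a CPM ratio of 51.2 (exact 95% interval 34.2 to 77.5), and Stfa2 56 against 24 UMIs, a ratio of 73.1 (44.6 to 123). Stfa1 had 7 against 3 UMIs, with an interval of 16.7 to 438. These ratios pool the UMIs of all libraries. By library, Cstdc4, Csta2 and Csta3 were higher in cluster 4 in 8 of 8, Stfa2 in 6 and lower in 0, and Stfa1 in only 2 and lower in 1, so its few UMIs show no steady difference. Reads from such similar genes could be split or moved between them by the counting. Cstb, the stefin B gene outside the block, stood at 181 against 140 CPM, a log2 ratio of 0.36.

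Of the genes next to the block on 1 side, Cd86 was higher in 8 of 8 libraries, with a pooled ratio of 5.05 (4.36 to 5.83). Ildr1, a protein of tricellular junctions, had 4.15 (2.53 to 6.50) and was higher in 6 libraries and lower in 2. Casr, the calcium-sensing receptor, had 5 against 17 UMIs (ratio 9.22, 2.66 to 26.0) and was higher in 4 and lower in 1. On the other side Fam162a, a mitochondrial protein induced by hypoxia, had 1.63 and Ccdc58 1.22, both higher in 8 of 8 libraries, and Slc49a4, a transporter, was at 0.574 and lower in 8. Outside the stefin genes, the median ratio of the genes measured within 1000 kb of the block was 0.959. Of the 25 leading genes, 4 were on chromosome 16 (Cstdc4, Csta2, Cd86 and Gap43), and Gap43 lies at 42248552 to 42340651, outside that window.

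**Figure D3:**
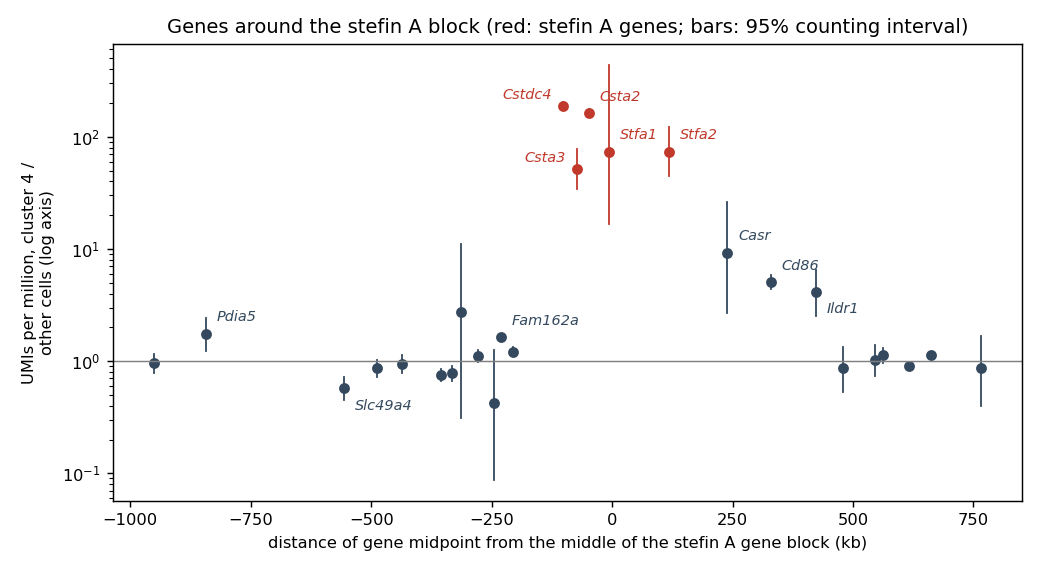
The horizontal axis gives distance in kb from the centre of the stefin block and the vertical axis, on a log scale, the ratio of CPM in cluster 4 to other cells, with exact 95% intervals as bars for the 26 of 28 genes (at least 10 UMIs in all) that had a UMI in cluster 4. The stefin genes lie at 51.2 to 188, Casr, Cd86 and Ildr1 between 4.15 and 9.22, and the rest between 0.426 and 2.73.

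Between KO and WT, 64 of 7828 tested genes differed in cluster 4 over both cultures (0.818% of genes tested). The edgeR quasi-likelihood test was run on the sums per library, with an adjusted p under 0.05 as the threshold. In KO, 27 were higher (0.345%) and 37 lower (0.473%). Gpr65 itself was at 1.28 and 0 CPM in KO Th17, 0.714 and 1.20 in KO Th22, 59.0 and 50.6 in WT Th17, and 47.9 and 48.7 in WT Th22, so all 4 KO libraries matched their label. The libraries of the 2 genotypes did not overlap for 43 of the 64 genes, and for 4.91% of all genes tested. Counting 4 libraries a side treats the Th17 and Th22 libraries of a number as independent, although they deviated together. With those libraries summed, 28 genes passed, 25 of them among the 64. The permutation tests between KO and WT carry the same limit. In the other cells of the same libraries 354 genes passed, 43 of them among the 64, and all 64 had the same sign there; these are other cells of the same libraries and so are no independent replicates. Of the 64, 12 passed under every alternative run, and leaving out a library gave 26 to 119 genes.

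Cysltr1 was lower in KO. It stood at 23.1 and 26.7 CPM in KO Th17, 22.1 and 31.7 in KO Th22, 43.9 and 45.2 in WT Th17, and 47.3 and 48.7 in WT Th22. The genotypes did not overlap, and the fitted log2 change was -0.81 ± 0.18 (SE; n = 4 against 4 libraries, edgeR adjusted p = 0.019). It missed the threshold under 6 of 16 alternatives, for example without replicate 2 of WT Th22, and the adjusted p ranged from 0.0046 to 0.40. In other cells Cysltr1 changed by -0.77, and the difference between the cluster 4 and the other-cell effect was -0.05 ± 0.18 (edgeR adjusted p = 0.996), so no genotype effect particular to cluster 4 was measured. With each cell thinned, the share of cluster 4 cells with a Cysltr1 UMI was lower in KO by 2.60 percentage points, with an exact permutation p of 0.0556 (two-sided), the smallest that 36 arrangements allow, or 0.222 adjusted over 8 such tests. Without thinning the shares were 7.82% ± 0.956 in KO Th17, 16.6% ± 3.40 in WT Th17, 11.6% ± 2.24 in KO Th22 and 18.5% ± 5.26 in WT Th22 (SD, n = 2 each).

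The leading stefin genes did not pass. Since 2395 of 2407 cells of the cluster held a UMI of either gene, levels within it cannot show whether these genes changed over all cells. Csta2 averaged -0.01 ± 0.13 on the log2 scale between KO and WT (edgeR adjusted p = 0.99), and Cstdc4, with KO at 261 to 381 and WT at 229 to 281 CPM, 0.37 ± 0.12 (0.17). Gap43 stood at 0.45 ± 0.16 (0.28), Map1b at 0.83 ± 0.27 (0.20) and Anxa3 at 0.56 ± 0.21 (0.30). Cox6a2, Nek6, Lta, Fabp5 and Cth, all leading genes of the cluster, rose in KO, and Ltb4r1 fell by 0.81 with Cysltr1.

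Among secreted and surface proteins, Ecm1, an extracellular matrix protein that T cells also secrete, fell from 130 to 157 CPM in the 4 WT libraries to 44.9 to 67.1 in the 4 KO libraries, with no overlap, a log2 change of -1.25 ± 0.14 (edgeR adjusted p = 6.7e-07). Ifitm3, which blocks entry of enveloped viruses, was at 15.4, 14.0, 25.0 and 22.9 CPM in KO and 79.1, 31.2, 117 and 94.3 in WT, a change of -2.06 ± 0.20 (3.2e-07), and all 3 tested Ifitm genes fell. Stat4, the signal transducer of IL-12 and IL-23, fell by 0.98, Bcl2l11, the pro-apoptotic protein Bim, by 1.19, and Sdcbp2, a PDZ adaptor, by 1.10. Pglyrp2, an amidase for peptidoglycan, Tent5c, a poly(A) polymerase, Dhx40, a helicase, and Abca2, a lipid transporter, fell by 1.02 to 1.13. Of these, Ecm1, Ifitm3 and Sdcbp2 passed under every alternative, whereas Abca2 was lost on leaving out any of the 8 libraries, and Bcl2l11, Pglyrp2, Tent5c, Dhx40 and Stat4 on leaving out 2 to 5 of them.

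Lta, lymphotoxin alpha, was at 101, 106, 52.1 and 56.1 CPM in the KO libraries (Th17, then Th22) and 40.2, 39.8, 26.0 and 27.4 in WT, a rise of 1.18 ± 0.15 (edgeR adjusted p = 2.0e-05). Nupr1, a stress-induced chromatin protein, rose by 1.19 ± 0.16 (3.9e-05), from 47.9 to 75.4 CPM in WT to 86.6 to 176 in KO. Ifi27, an interferon-induced mitochondrial protein, rose by 1.25, S100a6, a calcium-binding protein, by 1.28, Trat1, a T cell receptor-associated adaptor, by 1.19 and Ripk3, a kinase of necroptosis, by 1.01. Cth rose by 1.15, Nek6, a mitotic kinase, by 0.94, Chst2, a sulfotransferase, by 0.93 and Lgals3, galectin-3, by 0.82. Lta, Nupr1 and Ifi27 passed under every alternative, and S100a6 was lost without replicate 1 of KO Th17 or replicate 2 of KO Th22. Ifi27 lies at 103434189 to 103440245 on chromosome 12, the chromosome of Gpr65 (98268635 to 98276722). The part of sequence linked to the knockout locus was not tested, and neither allele nor strain is given.

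**Figure D4:**
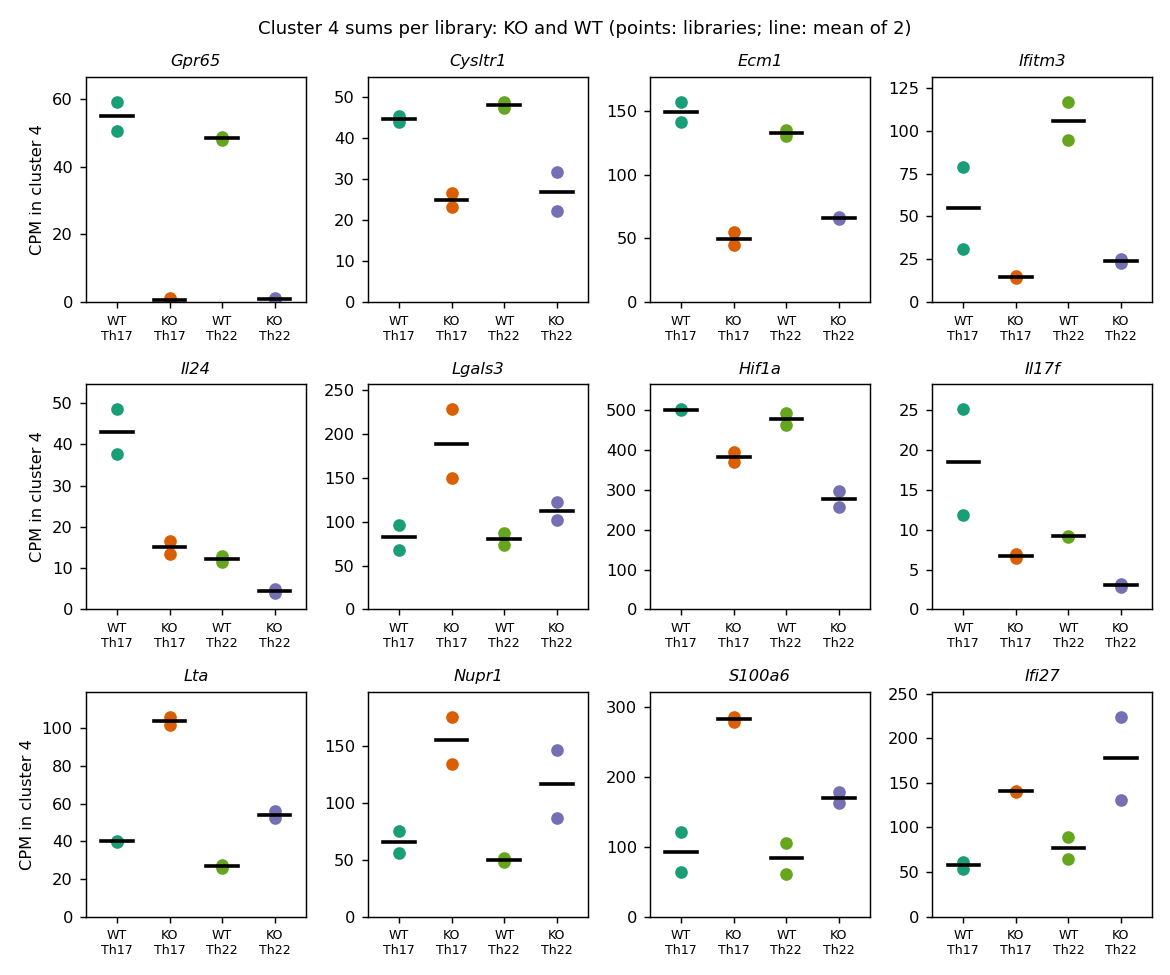
The vertical axes give CPM in the cluster 4 sum, with 1 point per library and a line at the mean of 2, for 12 genes by genotype and culture. Cysltr1 and Ecm1 lie lower in all 4 KO libraries, and Lta, Nupr1, S100a6 and Ifi27 lie higher in all 4.

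The counts of each list stand beside 0.345% of all genes called higher and 0.473% called lower. The Th17 list had 0 of 12 tested genes higher and 3 lower in KO (Il24 -1.56, Hif1a -0.62 and Il17f -1.49), with a median of -0.22 against -0.01 over all genes. Hif1a, the oxygen-sensitive transcription factor, was at 257 to 394 CPM in KO and 462 to 501 in WT, and passed under every alternative. Il17f ranged from 2.85 to 7.02 CPM in KO and from 9.13 to 25.1 in WT, with the call lost in 6 of 13 alternatives. Of 19 ATF4 and amino acid response genes, 4 rose (Nupr1, Cth, Asns 0.46 and Phgdh 0.45) and 0 fell, with a median of 0.24. In the regulatory T cell list, 3 of 8 fell (Ctla4 -0.98, Lrrc32 and Tnfrsf18), although Foxp3 was at 0. In the naive and memory list, 2 of 16 fell, among them Satb1 (-0.50), with a median of -0.36.

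Smaller counts, beside the same 0.345% and 0.473% of all genes, were seen elsewhere. In the eicosanoid list, 2 of 11 fell (Ltb4r1 and Cysltr1; median -0.12). The proton-sensing and cyclic AMP list had Gpr65 alone called among 14 (median -0.42), the interferon response list Isg15 alone, higher (2.06), among 10, and the Myc and ribosome biogenesis list none of 19 (median 0.23). Gzmb, granzyme B, and Nkg7 rose among 3 tested cytotoxic genes, by 0.65 and 1.52. Neither the 22 tested S phase nor the 24 tested G2/M genes held a call.

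In Th17 cultures alone, 14 genes (0.179%) passed in cluster 4, 6 higher (0.0766%) and 8 lower (0.102%) in KO. Ecm1 fell by 1.63, Il24, a cytokine of the IL-10 family, by 1.64 and Serpinb1a, a protease inhibitor, by 1.25. S100a6 rose by 1.56, Lta by 1.30, Lgals3 by 1.16 and Avpi1 by 0.82. Leaving out a library gave 3 to 83 genes; Gpr65 and Ecm1 passed under every alternative.

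In Th22 cultures alone, 18 genes (0.23%) passed, 5 higher (0.0639%) and 13 lower (0.166%). Hk2, hexokinase 2, fell by 1.20, Gpr183, a receptor for oxysterols, by 1.27, Abcb1b, an efflux pump, by 1.25, Pdcd4 by 0.91 and Hif1a by 0.76. Ide, the insulin-degrading enzyme, rose by 1.29 and Ifi27 by 1.28. Calls shared by the Th17 and Th22 comparisons among those higher were AA467197, Lta and Nupr1 (3 of 6 and of 5). Among those lower they were Ecm1, Gpr65 and Ifitm3 (3 of 8 and of 13). Both comparisons came from the same fit with a shared spread, and Th17 and Th22 libraries of a number deviated together. Shared calls are therefore no independent replication. The test of whether the genotype effect differed between cultures called 0 of 7828 genes in edgeR and 0 in DESeq2, with 396 at an unadjusted edgeR p under 0.05, so a gene past the threshold in only one culture is not shown to differ.

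Polarization changed 31 genes (0.396%) in cluster 4 over both genotypes, 13 higher (0.166%) and 18 lower (0.23%) in Th22. With libraries of the same genotype and number as pairs, 120 genes passed. That pairing was picked from how these libraries deviated, so the counts with pairs here and below are no separate support. Gzmb rose most steadily, from 120 to 262 CPM in the 4 Th17 libraries to 289 to 513 in the 4 Th22 libraries, with no overlap, by 1.08 ± 0.13 (edgeR adjusted p = 6.6e-05), and passed under every alternative. Tiparp, a target of the aryl hydrocarbon receptor, was at 33.4, 11.2, 23.8 and 17.2 CPM in Th17 and 52.8, 43.7, 45.0 and 62.4 in Th22, a rise of 1.41 ± 0.22 (0.0012). Asb2, a ubiquitin ligase subunit, rose by 1.12, Atp10a, a lipid flippase, by 1.05 and Fam3c, a secreted protein, by 0.92. Ifi27l2a, H2afy and Slfn2 rose by 0.48 to 0.52.

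Il24 fell in Th22, from 13.3 to 48.5 CPM in Th17 to 4.01 to 12.9, by 1.72 ± 0.24 (edgeR adjusted p = 0.00015). Cd226, a costimulatory receptor, fell by 1.49, Ramp1, a subunit of the receptor for calcitonin gene-related peptide, by 1.06, Inhba, a chain of activin A, by 1.02, Ntrk3, a neurotrophin receptor, by 0.97, Mdfic by 0.89, Cblb, a ubiquitin ligase that restrains T cell activation, by 0.89 and Rel, an NF-kB subunit, by 0.69. Fam107b and Serpinb5 fell by 0.68 and 0.66. Of the 31 genes, 23 were also among the 255 called in other cells, and all 31 had the same sign there.

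Il22, which Th22 cells are named for, did not pass. It was at 25.7, 4.21, 20.1 and 12.9 CPM in Th17 and 13.6, 41.3, 76.2 and 19.8 in Th22, which overlapped, at 1.55 ± 0.79 (edgeR adjusted p = 0.68). Csta2 (0.28 ± 0.13, 0.59), Cstdc4 (0.01 ± 0.12, 1.0) and Cysltr1 (0.20 ± 0.18, 0.82) did not pass either. For the stefin genes, levels within a cluster whose cells nearly all held their UMIs cannot show a change over all cells. Of 4 tested aryl hydrocarbon receptor targets, Tiparp rose and none fell (median 0.76 against 0.00 over all genes), and of 10 interferon response genes 1 passed, Ifi27l2a, with a median of 0.39. The 24 tested G2/M genes had a median of -0.25 and the 22 ribosomal protein genes 0.14, with 0 calls in either. Genes of a list are not independent. The share of cluster 4 cells called G2/M was lower in Th22 than in Th17 in KO (14.2% against 24.4%). In WT it was higher (17.3% against 13.9%, means of 2 libraries).

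Within WT, 5 genes (0.0639%) passed between Th22 and Th17, or 46 with pairs. The 1 gene higher in Th22 (0.0128%) was Gzmb, which rose by 1.09, and the 4 lower (0.0511%) included Il24, Cblb and Serpinb5, which fell by 1.79, 1.16 and 1.06. Within KO, 6 genes (0.0766%) passed, or 164 with pairs. The 2 higher (0.0255%) were Gzmb, which rose by 1.07, and Cldnd1, a claudin-like membrane protein, which rose by 1.80, and the 4 lower (0.0511%) were AA467197, Lmo4, Plek and Cd200, which fell by 1.03, 1.07, 1.71 and 1.21. Cd200, the ligand of an inhibitory myeloid receptor, was at 301 CPM in KO Th17 and 119 in KO Th22. Gzmb was the only gene called in both genotypes. AA467197, a gene known by its sequence name, was named after its values were seen.

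**Figure D5:**
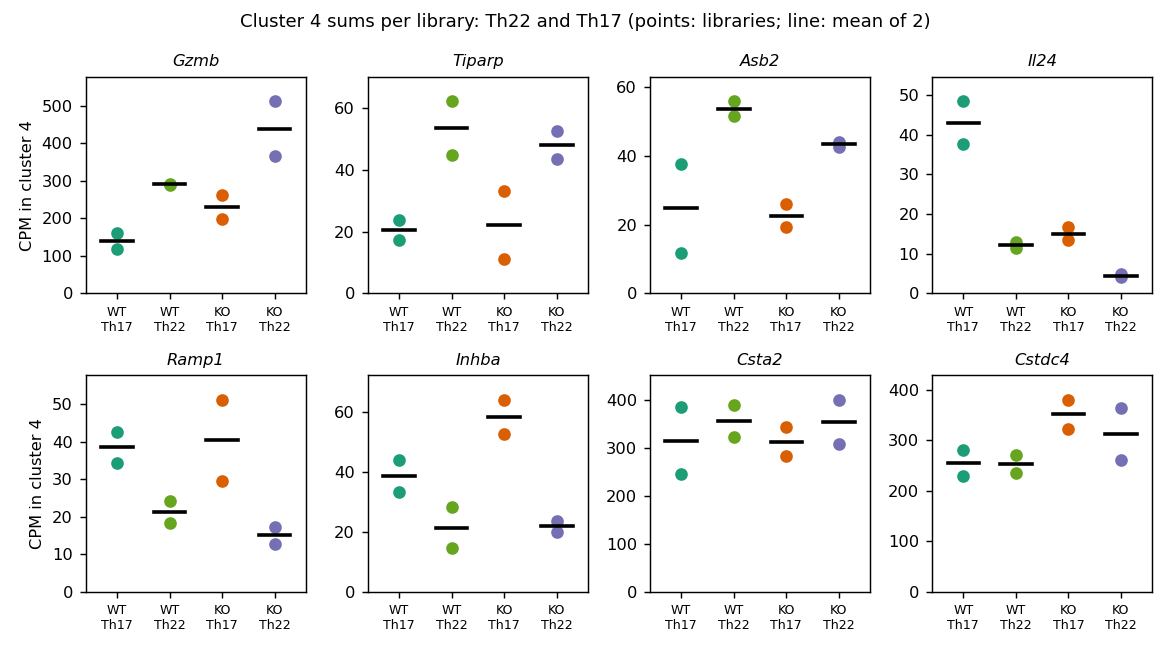
The vertical axes give CPM in the cluster 4 sum, with 1 point per library and a line at the mean of 2, for 8 genes. Gzmb lies higher and Il24, Ramp1 and Inhba lower in Th22 than in Th17 of the same genotype, while Csta2 and Cstdc4 overlap.

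Whether an effect was of another size in cluster 4 than in the other cells was tested on both sums of each library. Of 13144 genes, 7 (0.0533%) differed in the effect of genotype and 11 (0.0837%) in that of polarization. The increase of Gzmb in Th22 was larger in cluster 4, from 186 ± 60.4 to 365 ± 105 CPM, than in other cells, from 165 ± 53.7 to 239 ± 75.7 (SD, n = 4 libraries each), a difference of 0.49 ± 0.08 in log2 change (edgeR adjusted p = 1.4e-05). Odc1, the first enzyme of polyamine synthesis, fell less in cluster 4, from 233 ± 27.1 to 158 ± 11.1 CPM, than in other cells, from 274 ± 28.5 to 136 ± 16, a difference of 0.48 ± 0.08 (6.6e-05). Both passed on leaving out each library in turn, but not in sums of thinned cells (adjusted p 0.79 and 0.61). In those sums 0 genes passed for polarization and 1 for genotype, which was none of the 7.

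The share of kept cells in cluster 4 was 1.57% and 2.93% in KO Th17, 2.42% and 3.22% in KO Th22, 1.78% and 1.85% in WT Th17, and 2.69% and 2.18% in WT Th22. The KO and WT ranges overlapped in Th17 and lay at 2.42% to 3.22% and 2.18% to 2.69% in Th22, which also overlapped. Leading genes were called, in cluster 4 or in other cells, between KO and WT and between Th22 and Th17 over both genotypes. No test of these shares is therefore given. None of the leading genes checked for this was called between Th22 and Th17 within a genotype, where the shares also stand without a test. The share of cluster 4 cells with 3 or more stefin UMIs was 30.0% to 50.4% in the Th22 and 19.6% to 28.9% in the Th17 libraries, whose median depths in cluster 4 overlapped, at 3880 to 5185 and 3151 to 4685 UMIs. What depth contributes to a share of kept cells was not tested.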

How the data were processed

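UMI counts per gene and cell were deposited by the authors as one table with a cell table of library, cluster label, cell cycle scores and percent of mitochondrial UMIs per cell, which the authors computed. The submitters' processing notes name Cell Ranger 5.0.1, Seurat and mm10; for the clustering, the method was not given in the sources used here. Cells with at least 500 detected genes were kept (2972 of 104660 removed), and no doublet caller was run. Members and gene lists were chosen with earlier results of these data known.

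Counts were summed over cluster 4, and over all other kept cells, of each library. Named genes were Cysltr1 and fixed control genes, the 25 highest and 15 lowest mean log2 ratios with 1 sign in 8 of 8 libraries at 10 CPM, and for group comparisons the 10 largest rises and falls past the threshold without overlap at a mean of 10 CPM. Gene models without a name were counted only. For lists, up to 4 members were named. Some genes that the rule names are not reported here.

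Groups were compared with edgeR 4.0.16 (R 4.3.3, limma 3.58.1; robust quasi-likelihood, TMM factors 0.923 to 1.08, filterByExpr, Benjamini-Hochberg at 0.05), with culture or genotype as additive term, or 1 mean per group for comparisons within a culture or genotype. Differences between cluster 4 and other cells were fitted on 16 sums with the library as block. Printed CPM values were not TMM-scaled. On simulated data, edgeR recovered 50.9%, 97.3% and 100% of genes changed 1.5-, 2- and 4-fold between KO and WT (7596 genes run), and 50.8%, 94.0% and 100% between Th22 and Th17 (7568 genes run). Changed genes were drawn only from those above a minimum mean that exceeds the 10 CPM used for naming. Libraries were simulated as independent. Recovery is therefore not known for lower genes or for libraries that deviate together. Alternatives were DESeq2 1.42.0, no filter, the replicate block, other cell filters, thinning to 1500 UMIs, G1 cells and leaving out each library.

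Libraries of the same genotype and number deviated together from their group means (r = 0.35 in KO and 0.39 in WT for cluster 4). In other cells r was 0.91 and 0.61. Numbers paired Th22 with Th17 on that basis, so the pairing was picked from these data. The labels do not say what a number marks. With 2 libraries in a group, the sign of r depends only on which of them is numbered 1. KO and WT libraries of a number gave r of -0.16 in Th17 and -0.39 in Th22 for cluster 4. Libraries of a group differed by more than sampling noise (chi-square per degree of freedom 1.85 to 3.23). Positions and promoter windows came from RefSeq tables on GRCm38.p6, which held 91.8% of the symbols.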

Additional observations from a re-analysis of the deposited data

Results flagged for a closer look

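The 18 results below came from the test of whether an effect had another size in cluster 4 than in the other cells of the same libraries; each value is the effect in cluster 4 minus that in other cells, on the log2 scale, with the edgeR adjusted p under 0.05. For KO against WT, Ube2c, a ubiquitin-conjugating enzyme of mitosis, gave 0.45 (145 CPM in KO and 116 in WT within cluster 4, 182 and 212 in other cells), and Ckap2l, a spindle protein, 1.71 (10.5 and 2.98, against 13.2 and 14.6). Pgk1, a glycolytic enzyme, gave -0.25 (968 and 954, against 904 and 767), Fth1, the ferritin heavy chain, -0.20 (1611 and 1784, against 1187 and 1175), Snhg1 -0.28, Tg -0.47 and the unnamed gene model Gm44040 -1.99 on 65 UMIs in cluster 4. Each of these 7 was lost on leaving out at least 4 of the 8 libraries in turn, and Ckap2l on leaving out any of them. None of the 7 passed in sums of thinned cells, where the smallest adjusted p was 0.125 (Snhg1).

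For Th22 against Th17, Gzmb gave 0.49 and Odc1 0.48, both kept on leaving out each library in turn. With thinning none of the 11 genes passed. Csta2 gave -0.75 (adjusted p = 0.00035): other cells stood at 1.39 CPM in Th17 and 2.76 in Th22, a rise from a very low level, and cluster 4 at 315 and 356. This result for Csta2 was lost without replicate 1 of KO Th22 or replicate 1 of WT Th17, and the level of Csta2 is bound up with membership of the cluster. Top2a, a topoisomerase of dividing cells, gave -0.55 (144 CPM in Th17 and 101 in Th22 within cluster 4, 180 and 185 in other cells), and was lost without replicate 2 of KO Th22 or replicate 1 of WT Th22. Ube2c gave -0.44, Erh 0.75, Ermn -1.15, Psmb3 0.34, Tg -0.44, and Tmem267 2.29 on 46 UMIs, each lost without at least 4 of the libraries. Gzma, granzyme A, gave -3.50 on 20 UMIs in cluster 4, and was lost without replicate 1 of WT Th17 or replicate 2 of WT Th22.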

How the results depend on the processing

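No result changed direction. Over named genes and values, 1409 outcomes stayed on the same side of the threshold, 352 were lost, 5 were gained and 6 moved by more than their spread.

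Counts of called genes depended on the processing, and the cause was not tested. For KO against WT (64 genes), DESeq2 gave 33, no filter on low counts 128, thinning to 1500 UMIs 30, G1 cells 30 and sums of the Th17 and Th22 libraries of a number 28. For KO against WT in Th17 (14), no filter gave 43, and in Th22 (18), no filter 41, thinning 8 and G1 cells 5. For Th22 against Th17 (31), DESeq2 gave 12, no filter 85, thinning 7 and G1 cells 12. In WT (5) these were 1, 17, 1 and 2, with 3 without the 8% deepest cells, and in KO (6) no filter gave 55 and thinning 14. The interaction (0) gave 14 without a filter and 3 thinned. Differences from other cells fell from 7 to 1 for genotype (none of the 7) and from 11 to 0 for polarization with thinning. The 24 genes at least 2-fold higher in cluster 4 fell to 7 with a pseudocount of 10 CPM, and the share of 2.37% to 2.10% without the 8% deepest cells.

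The replicate block pairs Th22 with Th17 by a pairing picked from these data. With it, the counts rose to 120 over both genotypes, 46 in WT and 164 in KO. KO and WT libraries share only a number (r = -0.16 in Th17 and -0.39 in Th22), and the block gave 52 genes over both cultures, 11 in Th17 and 9 in Th22, and 0 for the interaction.

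Leaving out a library in turn gave 26 to 119 genes for KO against WT, 3 to 83 in Th17, 5 to 56 in Th22, 14 to 77 for Th22 against Th17, 0 to 18 in WT, 2 to 54 in KO, 0 to 23 for the interaction, 0 to 18 and 6 to 13 for the differences from other cells by genotype and polarization, 20 to 26 genes at least 2-fold higher and a share of 2.23% to 2.50%. Where a group was left with 1 library, that library was assumed to vary like the others. Depth limits single genes: most cells held 0 or 1 UMI of Cysltr1.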

Other observations

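Cell cycle phases, called from S and G2/M genes, varied between the libraries of cluster 4. The share of cells called G2/M was 24.4% ± 7.10 in KO Th17, 13.9% ± 1.17 in WT Th17, 14.2% ± 7.80 in KO Th22 and 17.3% ± 5.73 in WT Th22 (SD, n = 2 libraries each). The share called G1 was 46.6% ± 14.1, 62.7% ± 2.84, 59.1% ± 0.592 and 56.7% ± 7.74 in the same order. Between KO and WT the exact two-sided permutation p was 0.444 for each (0.508 adjusted over 8 tests). The smallest p that the 36 arrangements allow is 0.0556, so no share here could reach 0.05. The share of thinned cells with an Il17f UMI was 1.28 percentage points lower in KO (exact permutation p = 0.167), that with Il17a 0.45 points lower (0.333) and that with Il22 0.20 points lower (0.667). Without thinning, the Il17f share was 2.96 points lower (exact permutation p = 0.0556), at 1.97% ± 0.377 in KO Th17, 5.76% ± 1.23 in WT Th17, 1.42% ± 0.174 in KO Th22 and 3.53% ± 0.134 in WT Th22 (SD, n = 2 each). The unthinned shares with Il17a and Il22 were 0.78 and 0.82 points lower (exact permutation p = 0.167 and 0.333).

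Other members of the cystatin family showed no such ratio. Cst3, cystatin C, stood at 125 CPM in cluster 4 and 129 in other cells, Cst7, cystatin F, at 139 and 164, and Cst6 at 4.36 and 4.68.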
